A study of Tribolium castaneum with 9 samples.

Results

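The CYP4G enzymes are a subfamily of insect cytochrome P450s. From the deposited expression table of Tribolium castaneum, the red flour beetle, 3 genes so named are described here, Cyp4g7, LOC103315054 and LOC659561. They were chosen by name: Cyp4g7 by its symbol and the other two by their description as cytochrome P450 4g15. They are 3 of the 5467 genes listed. Cyp4g14, by its symbol, and LOC658360, by its description as P450 4g15, bear such names too. These 2 lie outside the choice and are taken up below. Every listed gene has a fold change of the authors' of at least 1 on the log2 scale, in either direction, in at least 1 comparison, so the table was itself selected on these samples.

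RNA-seq was done on adult beetles labelled as susceptible, and carbonyl sulfide (COS), a fumigant of stored grain, was the treatment. The groups were Malpighian tubules of COS-exposed adults, fat body of COS-exposed adults, and whole bodies of untreated control adults, with 3 libraries each. The labels used here state neither dose nor exposure time. The titles of the fat body libraries carry a number after COS that those of the tubule libraries lack, and no label explains it. Whether both organs had the same exposure is therefore not known, and in fat body over tubules organ and any difference in exposure cannot be told apart. No untreated organ and no treated whole body was analysed here, so organ and treatment cannot be told apart in either comparison with the control. Nothing in the labels says that the 3 libraries of a group came from separate animals or extractions, so a p-value may measure technical spread. Fat body replicate 1 differed from the other two fat body libraries with a chi-square per degree of freedom of 128 and 142, against 61.2 between those, and control replicate 3 from the other controls with 87.5 and 89.6, against 21.2. Tubule libraries differed from each other with 89.0 to 109, so no pair was the same library. In bulk RNA, fewer cells of a type and less RNA per cell cannot be told apart.

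Insects coat the cuticle with long hydrocarbons that limit water loss and serve in recognition. In Drosophila melanogaster, CYP4G1 makes them in oenocytes, cells that lie near the epidermis and fat body, by removing the carbonyl carbon of a long-chain aldehyde. The chain is built by fatty acid synthase and elongases, bent by desaturases and reduced by fatty acyl-CoA reductases. NADPH-cytochrome P450 reductase feeds electrons to the P450, and lipophorin carries the product to the cuticle. Insect genomes usually hold a pair of CYP4G types, typified by the fly's CYP4G1 and CYP4G15, and their proteins carry an insertion that makes them longer than other CYP4 enzymes.

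Cyp4g7 has a listed protein of 553 residues. LOC103315054 has 508, which is 45 fewer, and LOC659561 has 495, which is 58 fewer. The 23 CYP4 genes of the table that are not described as CYP4G have 398 to 534 residues, with a median of 495, and 22 of them are shorter than 510. Thus Cyp4g7 is longer than all 23 other CYP4 proteins, whereas LOC103315054 and LOC659561 lie within their range. Cyp4g7 and LOC103315054 carry the orthology number K15001 in the deposited table, and LOC659561 carries none. No protein sequence was at hand, so whether either short protein holds the CYP4G insertion was not tested.

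2 further genes outside the rule bear on the family and were picked after their values were seen. Cyp4g14, described only as a cytochrome P450 monooxygenase, has 560 residues, the only listed CYP4 protein longer than Cyp4g7. LOC658360, described as P450 4g15, has 467 residues, 86 fewer than Cyp4g7. Both Cyp4g14 and LOC658360 carry K15001, so that number goes with long and short proteins alike.

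Cyp4g7 was an abundant transcript in whole beetles and was lower in both organs. The deposited counts were 748, 971 and 1094 reads in the tubule libraries, 512, 257 and 365 in the fat body libraries, and 7184, 5289 and 6005 in the control libraries. As CPM, reads per library total scaled further by TMM so that most genes balance between libraries, they were 38.7, 70.0 and 73.2 in tubules, 34.1, 14.6 and 24.6 in fat body, and 466, 335 and 376 in controls. The highest organ library lay below the lowest control library, and the highest fat body library below the lowest tubule library.

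The means were 60.6 ± 19.1 CPM in tubules, 24.5 ± 9.76 CPM in fat body and 392 ± 66.9 CPM in controls (SD, n = 3 each). Cyp4g7 was lower in tubules than in controls, with a log2 fold change of -2.69 ± 0.35 (SE; edgeR quasi-likelihood test, adjusted p = 0.000191), which is 6.47-fold lower. In fat body it was 16-fold lower than in controls, at -4.0 ± 0.38 on the log2 scale (edgeR adjusted p = 8.47e-05). In fat body over tubules the log2 fold change was -1.31 ± 0.34 (edgeR adjusted p = 0.0059), or 2.48-fold lower. With the authors' size factors in place of TMM this last value was -0.67, no longer past the threshold of 0.05 (edgeR adjusted p = 0.0855). The authors' deposited table gives Cyp4g7 a log2 fold change of -3.18 in tubules and of -3.85 in fat body, each over control, and of -0.67 between fat body and tubules.

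Being lower was common in this selected table. The edgeR test called 62.8% of the 5358 genes tested in tubules over control, with 30.2% lower, and 2 of the 3 genes were called, Cyp4g7 lower and LOC103315054 higher. In fat body over control it called 69.1%, with 36.9% lower, and all 3 genes were called, Cyp4g7 being the lower one. In fat body over tubules it called 79.8%, with 41% lower, and called Cyp4g7 lower and LOC659561 higher. The size of the difference was less common: 5.49% of tested genes had a lower log2 fold change than Cyp4g7 in tubules over control, 2.67% in fat body over control and 38.3% in fat body over tubules. Groups that did not overlap, as those of Cyp4g7, were found for 72.4%, 78.0% and 80.3% of tested genes in these comparisons. Median log2 fold changes of all tested genes were -0.12, -0.22 and -0.24. Of the called genes, 51.9% were higher in tubules over control, 46.6% in fat body over control and 48.6% in fat body over tubules. With the authors' size factors the share was 34.2% in tubules over control, and with library totals alone it was 36% in fat body over control.

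**Figure D1:**
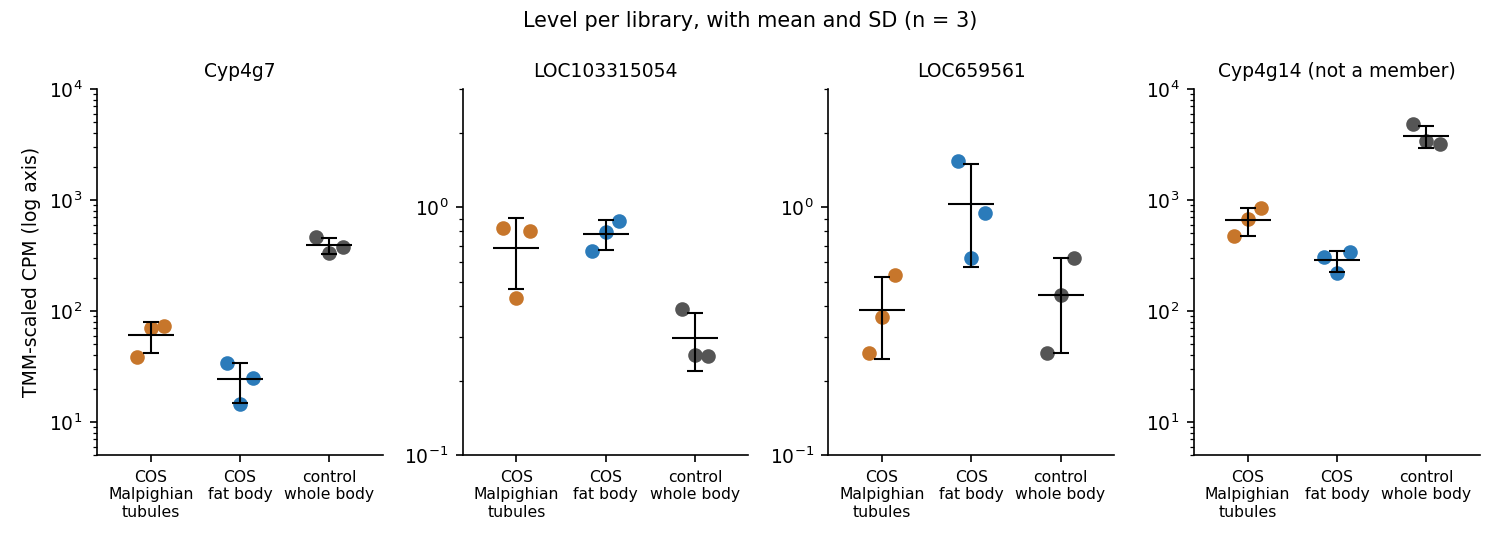
Level of each gene in every library, as CPM scaled by TMM on a log axis whose range differs between panels. Points are libraries, and the bar and whisker are the mean and SD of 3 libraries of tubules, fat body or control. Cyp4g7 lay at 14.6 to 73.2 CPM in the organs and at 335 to 466 CPM in controls, while LOC103315054 and LOC659561 stayed near 1 CPM or below except for 1.53 CPM of LOC659561 in a fat body library; Cyp4g14, not one of the 3 genes, is shown for comparison.

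LOC103315054 was near the detection limit everywhere, and slightly higher in the organs. It drew 16, 6 and 12 reads in tubule libraries, 10, 14 and 13 in fat body libraries, and 6, 4 and 4 in control libraries. That is 0.827, 0.433 and 0.803 CPM in tubules, 0.666, 0.795 and 0.878 CPM in fat body, and 0.389, 0.253 and 0.251 CPM in controls. Each organ library was above every control library, and the organs overlapped each other. With exact 95% Poisson intervals, which cover counting error only, the summed reads were 34 (23.5 to 47.5) in tubules, 37 (26.1 to 51.0) in fat body and 14 (7.65 to 23.5) in controls.

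LOC103315054 averaged 0.687 ± 0.221 CPM in tubules, 0.780 ± 0.106 CPM in fat body and 0.298 ± 0.0791 CPM in controls (SD, n = 3 each). It was higher in fat body than in controls by 1.37 ± 0.39 on the log2 scale (SE; edgeR adjusted p = 0.0122), where 32.2% of tested genes were called higher. No control library reached the minimum of the filter on low counts for this gene, so it was tested only through the organs where it is higher. In tubules over control the value was 1.20 ± 0.39 (edgeR adjusted p = 0.0227), where 32.6% were called higher. This call did not survive the authors' size factors, at 0.71 (edgeR adjusted p = 0.137), or leaving out control replicate 3 and fat body replicate 1, at 1.1 (edgeR adjusted p = 0.0829). It was also lost without tubule replicate 1 (1.05, edgeR adjusted p = 0.0784), tubule replicate 3 (1.1, 0.0639), control replicate 2 (1.1, 0.0803) or control replicate 3 (1.12, 0.0856). Fat body over tubules was 0.16 ± 0.35 (edgeR adjusted p = 0.697). The authors' deposited table gives LOC103315054 a log2 fold change of 0.72 in tubules and of 1.56 in fat body, each over control, and of 0.83 between fat body and tubules.

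LOC659561 was as scarce and leaned towards the fat body. It drew 5, 5 and 8 reads in tubule libraries, 23, 11 and 14 in fat body libraries, and 4, 7 and 10 in control libraries. The levels were 0.258, 0.361 and 0.535 CPM in tubules, 1.53, 0.625 and 0.945 CPM in fat body, and 0.259, 0.443 and 0.627 CPM in controls. Fat body lay above tubules in every library, while fat body and control overlapped slightly. Tubules and control overlapped over most of their range. The summed reads were 18 (10.7 to 28.4) in tubules, 48 (35.4 to 63.6) in fat body and 21 (13 to 32.1) in controls, with the same kind of interval.

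LOC659561 averaged 0.385 ± 0.140 CPM in tubules, 1.03 ± 0.460 CPM in fat body and 0.443 ± 0.184 CPM in controls (SD, n = 3 each). In fat body over tubules it was higher by 1.42 ± 0.48 on the log2 scale (SE; edgeR adjusted p = 0.0221), where 38.8% of tested genes were called higher. This call was lost without fat body replicate 1 (1.03, edgeR adjusted p = 0.0785), tubule replicate 1 (1.18, 0.0829) or tubule replicate 2 (1.39, 0.0556), and the value was 2.06 with the authors' size factors. In fat body over control its value was 1.20 ± 0.47, just past the threshold (edgeR adjusted p = 0.0473). Of 17 alternatives, 5 kept that call. It was lost under DESeq2, at 1.37 (adjusted p = 0.0642), and when library totals alone set the scale, at 0.94 (edgeR adjusted p = 0.0945). Leaving out single libraries of the compared groups ended it without fat body replicate 1 (0.80, edgeR adjusted p = 0.163), fat body replicate 3 (1.25, 0.0811), control replicate 1 (0.93, 0.14) or control replicate 2 (1.17, 0.112). Without any 1 tubule library, which shares only the estimate of spread, the adjusted p was 0.0502 to 0.0615 by edgeR. Tubules over control was -0.22 ± 0.52 (edgeR adjusted p = 0.715). The authors' deposited table gives LOC659561 a log2 fold change of -0.70 in tubules and of 1.38 in fat body, each over control, and of 2.08 between fat body and tubules.

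All 3 genes passed the filter on low counts, but not alike. The filter asks for at least 0.649 CPM before TMM scaling, worth 10 reads in the median library, in enough libraries. Cyp4g7 reached it in all 9 libraries. LOC103315054 reached it in 2 tubule, 2 fat body and 0 control libraries, and LOC659561 in 0 tubule, 2 fat body and 1 control library, so LOC103315054 entered the test through organ libraries alone, and LOC659561 through fat body and 1 control library. A gene that passes only where it is high had to differ in that direction, so the calls of these genes describe their few reads and support nothing further. In the RefSeq assembly icTriCast1.1 the 2 scarce genes are neighbours, and LOC659561 overlaps the uncharacterized gene LOC103315055, looked up after the values were seen. LOC103315055 stood at 9.35 ± 4.55 CPM in tubules, 5.38 ± 5.59 CPM in fat body and 21.1 ± 9.998 CPM in controls (SD, n = 3 each). How reads of overlapping genes, or of similar CYP4G copies, were shared out in counting is not given in the sources used here, so the few reads of these genes are uncertain in origin.

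**Figure D2:**
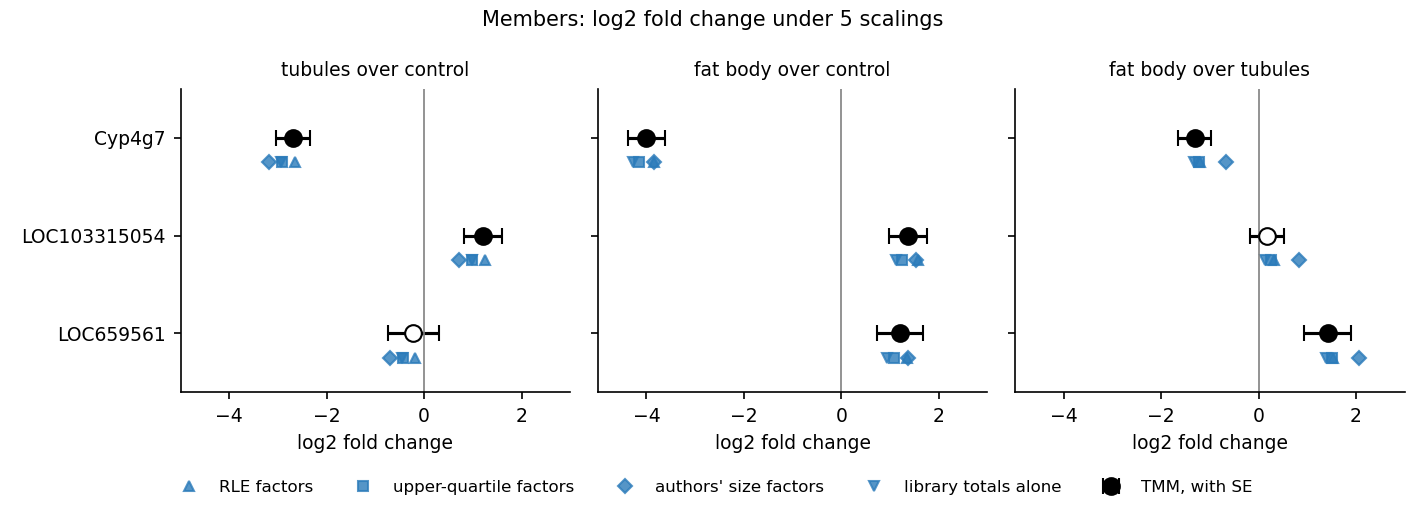
Log2 fold change of each gene in tubules over control, fat body over control and fat body over tubules. Black points with bars are the edgeR value and its SE, open where the adjusted p missed 0.05; blue marks are 4 other scalings. Cyp4g7 stayed below 0 in each comparison and scaling, while in tubules over control LOC659561, at -0.22, was not called.

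The 3 genes differed widely in level. Levels of different genes were set side by side as CPM per kilobase of coding length, because the deposited gene length of LOC659561 is 4.25 times its coding length, against 1.73 for LOC103315054 and 1.14 for Cyp4g7. On that scale Cyp4g7 averaged 36.5 in tubules, 14.7 in fat body and 236 in controls. LOC103315054 averaged 0.450 in tubules, 0.511 in fat body and 0.195 in controls. LOC659561 averaged 0.259 in tubules, 0.695 in fat body and 0.298 in controls. Cyp4g7 was the most abundant of the 3 in every group, and the order of the scarce pair was not the same in each group.

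Cyp4g7 ranked 5 in tubules, 13 in fat body and 2 in controls among the 28 CYP4 genes by mean CPM per coding kilobase. Cyp4g14 stood first in tubules with 393 and first in controls with 2256, and in fat body it had 171. The leading CYP4 gene in fat body was LOC660270, described as P450 4C1, with 603. The median of the 23 CYP4 genes not described as CYP4G was 5.26 in tubules, 13.1 in fat body and 8.35 in controls. LOC103315054 ranked 22 in tubules and 26 in both fat body and controls, and LOC659561 ranked 24 in tubules and 25 in the other groups.

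**Figure D3:**
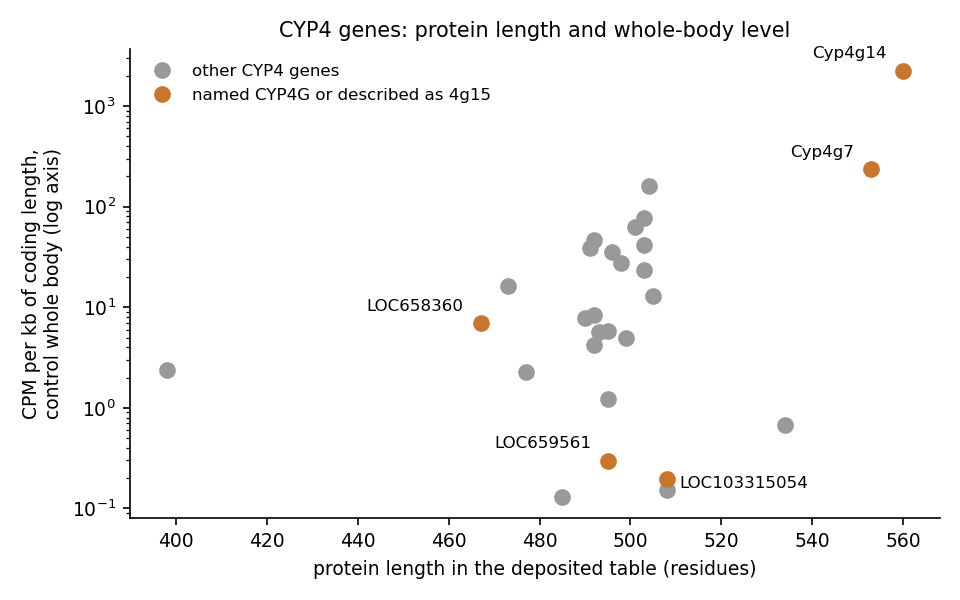
Protein length in residues against mean level in the control libraries (CPM per kilobase of coding length, log axis) for the 28 listed CYP4 genes; each point is a gene. Cyp4g7 (553 residues, 236) and Cyp4g14 (560 residues, 2256) are the longest and have the highest levels. Cyp4q2 is next in level at 161, not far below Cyp4g7. LOC103315054 and LOC659561 lie among the shorter CYP4 proteins at 0.195 and 0.298.

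The balance between Cyp4g7 and the scarce genes was compared within libraries, as the difference of their log2 TPM after adding 0.1. TPM uses the deposited gene length, which lowers LOC659561 most, so these ratios do not rank the genes and only their differences between groups are read. The TPM of LOC659561 lies near the added 0.1, which shrinks the change of that gene and can move those differences either way. Cyp4g7 over LOC103315054 was 6.65 ± 0.79 in tubules, 5.15 ± 0.71 in fat body and 10.4 ± 0.10 in controls (SD, n = 3 each). Cyp4g7 over LOC659561 was 8.11 ± 0.25 in tubules, 5.89 ± 0.17 in fat body and 10.8 ± 0.57 in controls (SD, n = 3 each). No organ library reached the lowest control library in either ratio. The drop relative to control was -3.70 in tubules and -5.21 in fat body for the first ratio, and -2.71 in tubules and -4.93 in fat body for the second. Each had a two-sided exact permutation p of 0.1, the smallest that 3 against 3 allows, and of 0.24 adjusted over the 12 ratio tests made. These drops include changes of the scarce genes themselves. LOC103315054 reached the filter on low counts in no control library, so the first ratio supports nothing beyond the values of each gene. The ratio of LOC103315054 to LOC659561 differed by 0.99 in tubules over control (exact permutation p = 0.2), 0.28 in fat body over control (0.7) and -0.71 in fat body over tubules (0.2), none beyond the spread between libraries.

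Cyp4g14 kept close to Cyp4g7. Its levels were 472, 668 and 846 CPM in tubules, 306, 219 and 338 CPM in fat body, and 4816, 3381 and 3195 CPM in controls. The deposited counts of Cyp4g14 were 12.2, 9.54 and 11.6 times those of Cyp4g7 in tubule libraries, 8.96, 15 and 13.7 times in fat body libraries, and 10.3, 10.1 and 8.49 times in control libraries. Cyp4g14 was lower in tubules than in controls, with a log2 fold change of -2.52 ± 0.28 (edgeR adjusted p = 6.89e-05), and in fat body, with -3.72 ± 0.29 (edgeR adjusted p = 4.63e-05). The log2 TPM difference between Cyp4g7 and Cyp4g14 was -3.44 ± 0.19 in tubules, -3.58 ± 0.40 in fat body and -3.24 ± 0.16 in controls. Its change relative to control was -0.20 in tubules and -0.35 in fat body, each with an exact permutation p of 0.3. LOC658360 followed another course, with 1.38 ± 0.617 CPM in tubules, 16.6 ± 1.93 CPM in fat body and 9.77 ± 2.42 CPM in controls. It was lower in tubules than in controls, with a log2 fold change of -2.83 ± 0.34 (edgeR adjusted p = 0.000114) and in fat body over control it had 0.76 ± 0.30 (edgeR adjusted p = 0.0488). The fat body call was lost without control replicate 3 and fat body replicate 1, at 0.68 (edgeR adjusted p = 0.137).

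The genes whose log2 CPM tracked Cyp4g7 most closely over the 9 libraries, by Pearson's r as a description, were Mt1, described as methyltransferase 1 (0.996), and the fatty acyl-CoA reductase genes LOC100141869 (0.995) and LOC661734 (0.992). The points share 3 groups and the same libraries, so a gene high in controls and low in fat body scores well. LOC100141869 had 12.2 ± 4.14 CPM in tubules, 3.81 ± 2.20 CPM in fat body and 85.6 ± 19.2 CPM in controls. LOC661734 had 9.88 ± 1.35 CPM in tubules, 4.01 ± 1.08 CPM in fat body and 78.9 ± 22 CPM in controls. Mt1 had 8.08 ± 3.50 CPM in tubules, 2.77 ± 0.864 CPM in fat body and 52.6 ± 5.02 CPM in controls (SD, n = 3 each).

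All 3 of these genes were lower in both organs than in controls. The log2 fold changes in fat body over control were -4.25 ± 0.39 for Mt1 (edgeR adjusted p = 7.9e-05), -4.49 ± 0.50 for LOC100141869 (0.000163) and -4.30 ± 0.30 for LOC661734 (3.93e-05). In tubules over control they were -2.70 ± 0.36 for Mt1 (edgeR adjusted p = 0.000196), -2.81 ± 0.46 for LOC100141869 (0.000644) and -3.0 ± 0.28 for LOC661734 (3.03e-05). For the scarce genes r carries much counting noise. LOC103315054 was closest to LOC656389, described as transcription factor Ken (0.970), LOC657959, protein sprint (0.966), and LOC659329, a farnesyltransferase beta subunit (0.964). LOC659561 was closest to LOC656688, trypsin-3 (0.897), LOC655695, acetylcholinesterase (0.876), and the desaturase gene TcasZ9desA (0.862). Between the 3 genes themselves r was -0.88 for Cyp4g7 with LOC103315054, -0.43 for Cyp4g7 with LOC659561 and 0.25 for the scarce pair.

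Upstream of Cyp4g7, fatty acid synthase genes were mostly lower in both organs. All 8 listed fatty acid synthase genes, which build the chain from acetyl units, were lower in tubules than in controls, with a median log2 fold change of -2.32, where 30.2% of all tested genes were called lower. In fat body 6 were lower and 2 higher than in controls, with a median of -3.90, where 36.9% of all tested genes were lower and 32.2% higher. LOC662899, the fatty acid synthase gene with the highest control level, had 207, 161 and 169 CPM in tubules, 163, 49.8 and 84.1 CPM in fat body, and 1460, 1627 and 2551 CPM in controls. Its log2 fold change was -3.39 ± 0.43 in tubules over control (edgeR adjusted p = 0.000156) and -4.25 ± 0.45 in fat body over control (edgeR adjusted p = 0.00013). LOC658944 was lower too, with -4.70 ± 0.34 in fat body (edgeR adjusted p = 4.3e-05). LOC103314884 went the other way in fat body, with 819 ± 272 CPM there and 192 ± 18.4 CPM in controls, a log2 fold change of 2.09 ± 0.28 (edgeR adjusted p = 0.000358).

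Elongases lengthen the chain by further carbons. Of 13 tested, 3 were higher and 9 lower in tubules than in controls (median log2 fold change -1.18), while 9 were higher and 3 lower in fat body (median 0.99). Over all tested genes 32.6% were higher and 30.2% lower in tubules, and 32.2% higher and 36.9% lower in fat body. LOC659089, described as elongase 6, was higher in both, at 115 CPM in tubules and 97.7 CPM in fat body against 44.3 CPM in controls. LOC655561 was lower in both, at 25.7 CPM in tubules and 14.1 CPM in fat body against 70.0 CPM in controls. LOC660197 was higher in both, at 105 CPM in tubules and 66.4 CPM in fat body against 37 CPM in controls. LOC103315088 had 0.318 CPM in tubules, on 1, 6 and 7 reads, and 11.3 CPM in fat body against 5.39 CPM in controls. LOC657055 was lower in tubules, at 20.5 CPM, and higher in fat body, at 130 CPM, against 46.6 CPM in controls.

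Of 12 listed desaturase genes, which place double bonds, 10 were tested. In tubules 1 was higher and 5 lower than in controls (median log2 fold change -0.59), and in fat body 5 were higher and 2 lower (median 1.01), beside the same shares over all tested genes. Z9desB stood at 341 CPM in fat body and 51.3 CPM in controls, and TcasZ9desA at 245 CPM in fat body and 31.1 CPM in controls. Both were higher in fat body, by 2.73 (edgeR adjusted p = 0.000204) and 2.98 (0.000996) on the log2 scale. LOC656313 was the desaturase that was higher in tubules, at 366 CPM against 123.4 CPM in controls. LOC656478 was lower in tubules and higher in fat body, at 3.30 CPM in tubules and 169 CPM in fat body against 63.9 CPM in controls. LOC662865 drew 224, 28 and 3 reads in fat body libraries and 892, 1057 and 1427 in control libraries, a wide spread within fat body.

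Fatty acyl-CoA reductases supply the aldehyde or alcohol. Of 17 listed, 16 were tested: 2 were higher and 12 lower in tubules than in controls (median log2 fold change -1.89), and 5 were higher and 6 lower in fat body. The fat body counts are near the 32.2% higher and 36.9% lower of all tested genes, and in tubules 32.6% of all tested genes were higher and 30.2% lower. The fat body median, -0.08, turned sign with the scaling, from -0.33 to 0.12. LOC656776 was lower in both organs, with 23.5 ± 7.63 CPM in tubules, 4.58 ± 1.81 CPM in fat body and 168 ± 42.6 CPM in controls (SD, n = 3 each). LOC659392 drew 3, 3 and 1 reads in tubule libraries, 2, 0 and 2 in fat body libraries, and 229, 248 and 455 in control libraries. LOC656109, described as fatty acyl-CoA reductase 1, was tubule-rich, with 439 ± 109 CPM in tubules and 12.6 CPM in controls, a log2 fold change of 5.12 ± 0.23 (edgeR adjusted p = 1.72e-06). LOC656943 was higher in fat body, at 70.5 CPM against 18.3 CPM in controls.

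With TMM scaling neither electron donor gene was called lower in an organ, unlike Cyp4g7. The shares called lower among all tested genes were 30.2% in tubules and 36.9% in fat body, each over control. The tubule result depended on the scaling. When library totals alone set the scale, 1 donor gene was called lower in tubules over control. The same count came from upper-quartile scaling and from the size factors of the authors. The remaining scaling called neither lower. LOC659809, the NADPH-cytochrome P450 reductase that serves all microsomal P450s, had 423 ± 25.7 CPM in tubules, 990 ± 98.6 CPM in fat body and 493 ± 62.7 CPM in controls (SD, n = 3 each). It was higher in fat body than in controls by 1.01 ± 0.14 on the log2 scale (edgeR adjusted p = 0.000499), and in tubules over control its value was -0.22 (edgeR adjusted p = 0.2). LOC656171, a cytochrome b5, had 9.67 CPM in tubules, 27 CPM in fat body and 7.85 CPM in controls, and was higher in fat body by 1.78 (edgeR adjusted p = 0.000309).

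Both apolipophorin genes, whose products form the lipid carrier of the blood, were called lower in tubules and higher in fat body than in controls. Of all tested genes, 30.2% were called lower in tubules and 32.2% higher in fat body. LOC663181 had 245 CPM in tubules, 6689 CPM in fat body and 2251 CPM in controls. LOC107398075 had 269 CPM in tubules, 3051 CPM in fat body and 1053 CPM in controls.

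Many other CYP4 enzymes are linked in insects to the handling of fatty acids and foreign compounds. Of 23 listed, 22 were tested: 16 were higher and 3 lower in fat body than in controls (median log2 fold change 1.11), where 32.2% of all tested genes were higher and 36.9% lower. In tubules 2 were higher and 13 lower (median -1.13), where 32.6% of all tested genes were higher and 30.2% lower. LOC660270 was higher in fat body, with 911 CPM against 63.4 CPM in controls, and Cyp4bn11 was lower there, with 2.65 CPM against 12.3 CPM in controls. LOC660596 was lower in both organs, with 0.992 CPM in tubules and 1.3 CPM in fat body against 6.30 CPM in controls. LOC662300 drew 2, 0 and 3 reads in tubule libraries and 193, 200 and 149 in control libraries.

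**Figure D4:**
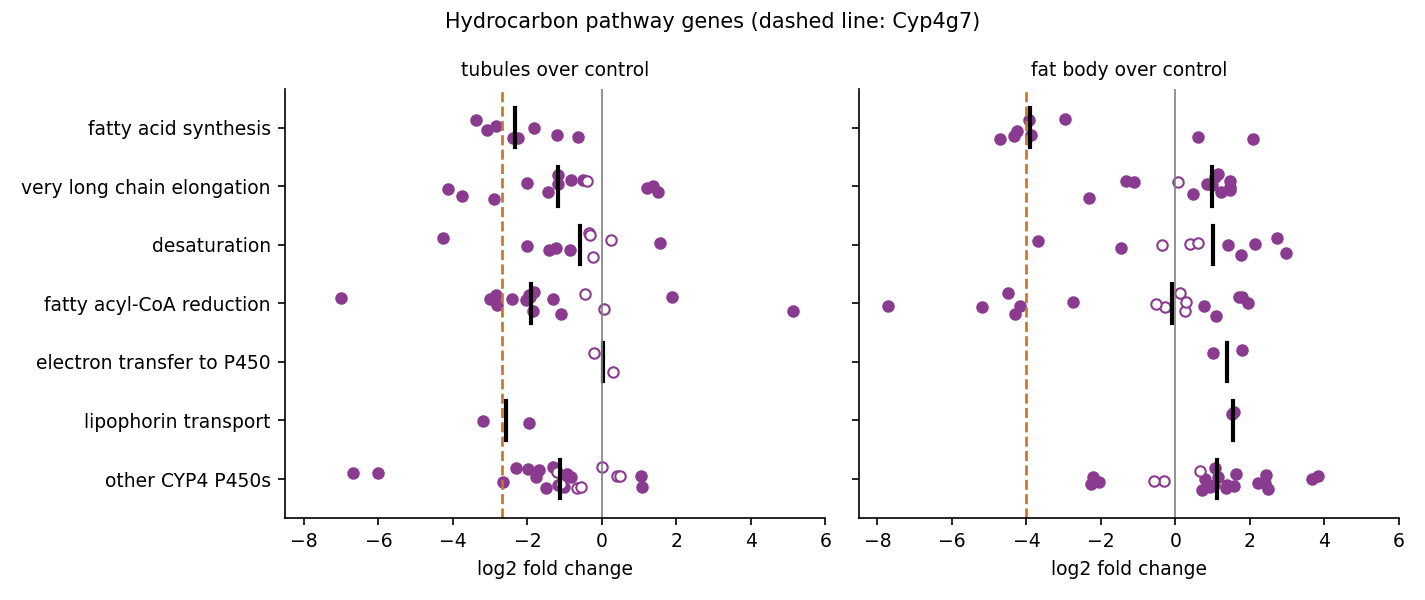
Log2 fold change of each tested gene by pathway list, for tubules over control and fat body over control. Filled points passed the adjusted p of 0.05, the bar is the list's median, and the dashed line is Cyp4g7 (-2.69 in tubules, -4.0 in fat body). Fatty acid synthase genes have medians of -2.32 in tubules and -3.90 in fat body, while other CYP4 genes have a median of 1.11 in fat body.

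The summed levels of several marker lists of other cell types differed between the groups. The counts of called markers stand beside 32.6% higher and 30.2% lower of all tested genes in tubules over control, and 32.2% higher and 36.9% lower in fat body over control. Oenocytes have no marker list here that is separate from the hydrocarbon genes above, and the share of oenocytes or epidermis in each sample was not tested. Of 38 listed cuticle and epidermis genes, 33 were tested: 10 were higher and 14 lower in tubules than in controls, and 18 were higher and 2 lower in fat body. The tubule count of higher cuticle genes is near the share of all tested genes. Their summed level was 91.9 to 166 CPM in tubules, 349 to 382 CPM in fat body and 155 to 194 CPM in controls, so it was highest in fat body, where Cyp4g7 was lowest. The vitellogenin gene LOC660042, which encodes a yolk protein made in the fat body, had 405 CPM in tubules, 8602 CPM in fat body and 540 CPM in controls. The 6 fat body markers, led by it, summed to 489 to 771 CPM in tubules, 7286 to 15175 CPM in fat body and 989 to 1706 CPM in controls. By fold change, 5 of the 6 were lower and none higher in tubules, while 3 were higher and 3 lower in fat body than in controls.

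The 11 V-ATPase subunits that mark tubules summed to 5645 to 7554 CPM in tubules, 1773 to 1959 CPM in fat body and 1743 to 1973 CPM in controls, and 8 were higher and 1 lower in tubules than in controls. The 16 muscle genes, ranked by mean TPM, were led by the troponin T gene LOC663893. It had 191 CPM in tubules, 3768 CPM in fat body and 1635 CPM in controls. The 16 genes summed to 1448 to 1839 CPM in tubules, 27770 to 34160 CPM in fat body and 11576 to 12339 CPM in controls. They were thus highest in the fat body libraries. Of the muscle genes, 11 were lower and none higher in tubules than in controls, and 9 were higher and 7 lower in fat body. The 33 gut genes, of which 32 were tested, summed to 1694 to 3394 CPM in tubules, 318 to 431 CPM in fat body and 1088 to 1812 CPM in controls. Of these, 7 were higher and 9 lower in tubules, and 6 were higher and 20 lower in fat body. The 16 testis and sperm genes summed to 395 to 1175 CPM in tubules, 233 to 1189 CPM in fat body and 1321 to 3663 CPM in controls, with 3 lower in tubules and 1 higher and 7 lower in fat body. By mean TPM, the most abundant markers of the other lists included the cuticle gene LOC658379 (3.23 CPM in tubules, 65.9 in fat body, 12.5 in controls) and the V-ATPase gene LOC663777 (393 CPM in tubules, 118 in controls). The others were the gut gene LOC655599 (1038 CPM in tubules, 90.8 in fat body, 212 in controls) and the testis gene LOC663790 (116 CPM in tubules, 82.6 in fat body, 259 in controls). No marker was at 0 in a whole group except the gut genes LOC107397457 and LOC656631 in fat body. The part of these cell types in the lower organ level of Cyp4g7 was not tested.

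Every control library was shallower than every organ library. The totals recovered from the deposited values were 15175796 to 19866421 reads in tubule libraries, 16125682 to 18174747 in fat body libraries and 13435869 to 14803877 in control libraries. Listed genes took 45.7% to 50.5% of the reads in tubules, 67.0% to 67.3% in fat body and 58.0% to 60.9% in controls. Without control replicate 3 and fat body replicate 1, the log2 fold change of Cyp4g7 was -2.73 in tubules over control (edgeR adjusted p = 0.000534), -4.35 in fat body over control (0.000788) and -1.62 in fat body over tubules (0.00426). LOC103315054 without both had 1.36 in fat body over control (edgeR adjusted p = 0.046), and LOC659561 then fell below the filter on low counts.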

How the data were processed

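Gene-level values of 9 libraries were deposited. Per the file headers, the authors gave expected counts (here all whole), a DESeq-normalised signal (counts divided by size factors), FPKM, TPM and log2 fold changes for each gene. The deposited gene length spans introns or UTRs (median 2.33 times the coding length), so FPKM was not used for levels. TPM served for ratios within a library. Mean TPM also picked the most abundant gene of each list, so that choice depends on the deposited gene length. The labels name build Tcas5.2, and Trimmomatic 0.32 was used per the submitters' processing notes; no source used here names the aligner or counter. 0 other per-sample columns were present. Library totals were recovered from the deposited count, FPKM and gene length, and the authors' size factors from count over signal.

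Counts of the 5467 listed genes were tested with edgeR 4.0.16 in R 4.3.3 (filterByExpr, TMM, glmQLFit and glmQLFTest over all 9 libraries, no covariate). 5358 genes passed the filter and 109 did not; p-values were adjusted by Benjamini-Hochberg over all tested genes, with a threshold of 0.05. The SE of a fold change is its size divided by the square root of F. The fit was also run on simulated counts in which few genes changed, as many up as down. Most of the real genes tested were called, so that run says little about errors here. Ratios used exact permutation tests. DESeq2 1.42.0, 4 other scalings, no filter, only the compared groups, a replicate block and leaving out libraries were tried.

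The 3 genes and the pathway and marker lists were chosen with earlier results of these data known. After the table was seen, 19 list members were removed and 7 added by hand, by description. Genes named are the 3, each pathway list's most abundant gene and its largest called rises and falls against control (not all are printed), each marker list's most abundant gene, and the 3 genes most alike each of the 3 by r among those averaging at least 5 CPM.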

Additional observations from a re-analysis of the deposited data

Results flagged for a closer look

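The test of the difference between the organs picked out 2 results. Cyp4g7 was lower in fat body than in tubules, with a log2 fold change of -1.31 (edgeR adjusted p = 0.0059), and every fat body library lay below every tubule library. With the authors' size factors its value was -0.67 and missed the threshold (edgeR adjusted p = 0.0855). LOC659561 stood higher in fat body, with 1.42 (edgeR adjusted p = 0.0221), again with no overlap. It drew 48 summed reads in fat body and 18 in tubules, and with the authors' size factors its value was 2.06. This call was lost without fat body replicate 1 (1.03, edgeR adjusted p = 0.0785), tubule replicate 1 (1.18, 0.0829) or tubule replicate 2 (1.39, 0.0556). Of the groups compared, only fat body, where the gene is higher, had libraries that reached the filter on low counts. The call therefore describes few reads and supports nothing further. In this comparison 79.8% of tested genes were called, and 80.3% had groups that did not overlap.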

How the results depend on the processing

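Cyp4g7 kept direction and call in 18 of 18 alternatives in tubules over control (-3.18 to -2.45) and in fat body over control (-4.35 to -3.74); fat body over tubules kept its call in 17 of 18, and was -0.67 with the authors' size factors. LOC103315054 in fat body over control had 1.12 to 1.60 over 17 alternatives, which is no sign of stability, since no control library reached the filter. In tubules over control it missed the threshold with DESeq2 (1.27), library totals alone (0.98), the authors' size factors (0.71), upper-quartile factors (0.99) and without the 2 libraries that stand apart (1.1), and single left-out libraries gave 1.05 to 1.43. In fat body over tubules left-out libraries gave -0.059 to 0.32, turning without tubule replicate 2 (-0.059). LOC659561 in fat body over control missed it with upper-quartile factors (1.07), library totals alone (0.94), DESeq2 (1.37), only the compared groups (1.18) and the replicate block (1.21, edgeR adjusted p = 0.0743), and left-out libraries gave 0.80 to 1.55. Its fat body over tubules value was 1.03 to 1.73 with single libraries left out and 2.06 with the authors' size factors. Its tubules over control value was -0.53 to 0.13 with single libraries left out and -0.70 with the authors' size factors, turning without control replicate 3 (0.13) or tubule replicate 1 (0.02). The causes were not tested. LOC103315054 with only the compared groups (against control) and LOC659561 with only the tubule pairs, or without the 2 libraries, fell below the filter and gave no value.

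Over the 9 same-numbered pairs, deviations correlated at r = -0.43 to 0.36, and pairs of different numbers gave -0.51 to 0.41. With ranges so alike, the check cannot tell whether equal numbers mark paired samples. The replicate block gave Cyp4g7 -2.66, -4.03 and -1.37 in the 3 comparisons. Other signs that turned were, with the authors' size factors, tubules over control of Z9desB (-0.25), LOC656171 (-0.20) and LOC660270 (-0.10), and the V-ATPase list in fat body over control (1 more higher than lower, against 1 fewer). TcasZ9desA in tubules over control was 0.40 without control replicate 3 and 0.37 without the 2 libraries. LOC663777 in fat body over control was -0.058 with upper-quartile factors, -0.19 with library totals alone and -0.0095 without control replicate 1, with left-out libraries giving -0.0095 to 0.20. Counts of called genes over all tested genes stayed within 1.5 times. Across the other scalings 7 list counts moved further. Testis and sperm genes called lower went from 3 to 8 in tubules over control with the authors' size factors. In fat body over control they went from 7 to 14 with library totals alone. The authors' size factors shifted the median of all genes by -0.49 in tubules over control, 0.16 in fat body over control and 0.65 in fat body over tubules. Fewer than 25 reads per library limit LOC103315054 and LOC659561.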
